A study of Mus musculus with 12 samples.

Results

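Livers of female mice lacking OXR1A were compared with livers of wild-type females, which takes 6 of the series' 12 libraries: 3 labelled OXR1A-/- and 3 labelled WT, all liver, all female and all from mice aged 12 months. The libraries were chosen by the sex and genotype in their labels. The other 6 libraries are 3 wild-type and 3 OXR1A-/- male livers of the same age. They enter here for the choice of genes tested, the estimate of the spread and the slope on the clock score used below. They also serve a test of whether an effect differs between the sexes, and some of their values are given for comparison. The sources used here do not say how the allele was made, whether the 3 libraries of a group came from separate animals, or at what time of day livers were taken. The p-values therefore describe the spread among these libraries, part of which may be technical. Below, knockout means OXR1A-/-.

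OXR1A is one of the protein forms of Oxr1, a TLDc-domain gene first known from the protection of cells against oxidative damage. The liver also runs a circadian clock. CLOCK (or NPAS2) pairs with ARNTL (BMAL1) and switches on repressors of the PER and CRY families and the REV-ERB receptors Nr1d1 and Nr1d2, which feed back on Arntl. Output factors such as Dbp and Tef carry the rhythm on to genes of metabolism, so livers taken at different phases differ in many transcripts whatever their genotype.

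Values are FPKM, which counts fragments relative to the length of the transcript and to all mapped fragments. A gene was tested if 3 or more of the 12 libraries reached 1 FPKM, which 11514 of 18560 did, and the tests were run on log2(FPKM + 1) with limma. Log2 changes are knockout minus wild type on that scale, with a standard error (SE), and understate the change of low genes, while folds are ratios of mean FPKM. A change is called when its p, adjusted over all tested genes, is under 0.05.

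The row for Oxr1 gave 17.4, 17.5 and 20.7 FPKM in wild-type females 1 to 3 and 20.1, 19.7 and 21.0 FPKM in knockout females 1 to 3. The groups overlapped, with a log2 change of 0.13 (SE 0.18, limma adjusted p = 0.938). This row covers the whole gene on chromosome 15, all isoforms together, so it is no check on the loss of the OXR1A form. Xist, made by the inactive X chromosome, lay at 19.2 to 45.9 FPKM in the 6 female libraries and at 0.04 to 0.82 FPKM in the 6 male ones. Traces of the Y-linked Eif2s3y stood at 1.89 FPKM in wild-type female 1 and 0.85 FPKM in knockout female 1, against at most 0.10 FPKM in the other female libraries and at least 23.1 FPKM in males. Relative depth, read from the steps of low FPKM values, ran from 0.97 to 1.26 over the female libraries with wild-type female 1 set to 1. The first principal component of the female libraries, with 41.9% of their variance, put the wild types at -14.7, -20.8 and -4.17 and the knockouts at 3.24, 25.7 and 10.7, so the genotypes did not overlap on it. Knockout female 2 lay farthest out, and it had fewer long transcripts than the others (slope of the log2 deviation on log2 length of -0.121 against -0.008 to 0.079). That slope was 0.034, 0.079 and 0.025 in wild-type females 1 to 3. In knockout females 1 to 3 it was 0.028, -0.121 and -0.008. The part of transcript length in this component was not tested.

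The wild-type females differed among themselves in clock genes. A score was formed from genes of opposite clock phase: the mean log2(FPKM + 1) of 6 genes (Dbp, Tef, Nr1d1, Nr1d2, Per3 and Ciart, listed under its older symbol Gm129) minus that of 5 genes (Arntl, Npas2, Clock, Cry1 and Nfil3). It was centred over the libraries only where it entered a fit. Clock factors reach the first kind of gene through short DNA elements: the E-box CACGTG, bound by CLOCK and ARNTL, and the D-box TTATGTAA, bound by DBP, TEF and the opposing factor NFIL3. Stretches upstream of 3 of these genes are shown because they hold exact copies of these elements (capitals). They were read 5′ to 3′ on the gene's strand from the RefSeq promoter table of GRCm38, in which all 11 score genes had an entry.
Ciart (chr3:95882259-95882358, minus strand): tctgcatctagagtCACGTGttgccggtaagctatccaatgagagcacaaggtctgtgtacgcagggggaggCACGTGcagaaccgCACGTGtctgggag
Per3 (chr4:151044806-151044885, minus strand): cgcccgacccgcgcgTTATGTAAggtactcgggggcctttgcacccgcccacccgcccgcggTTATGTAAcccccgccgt
Tef (chr15:81802523-81802582, plus strand): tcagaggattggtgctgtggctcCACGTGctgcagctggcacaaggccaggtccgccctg
Within 250 bases before the start given in that table, Ciart held 3 E-boxes, beginning 116, 58 and 44 bases before it, Tef 1 at 127 and Cry1 1 at 60. The RefSeq gene bounds of Ciart and Per3 begin farther upstream than this start, at bases 95882257 and 151044707. Per3 held 2 D-boxes, at 205 and 158 bases. On either strand an E-box occurred in 6.02% and a D-box in 0.819% of the 32851 promoters of the table. The REV-ERB and ROR half-site TAGGTCA, found in 2.23% of them, occurred in Nfil3 alone among the 11 score genes, 12 bases before the start and on the opposite strand. The other 6 score genes held none of these exact strings in that window.

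The clock score was 2.86, 3.72 and -0.36 log2 units in wild-type females 1, 2 and 3, and 0.53, 0.47 and -0.75 in knockout females 1, 2 and 3. Wild-type females 1 and 2 were thus high, whereas wild-type female 3 fell inside the knockout range. Wild-type females 1 and 2 were also the lowest on the first principal component. The means were 2.07 ± 2.15 (SD, n = 3) in wild type and 0.0837 ± 0.720 (SD, n = 3) in knockout, a difference of -1.99 that is smaller than the spread among the wild-type libraries. Wild-type males lay between -1.35 and -1.14, and knockout males between -2.04 and -0.49. No p is given for the score, since its genes were chosen with earlier results known.

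**Figure D1:**
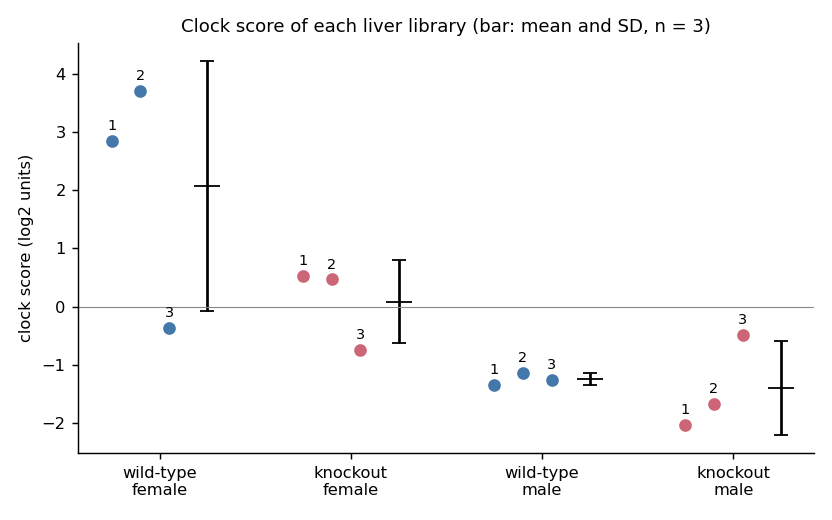
Clock score (log2 units, y axis) of each liver library, by group (x axis); points are libraries with their replicate number, and the bar beside them is the mean and SD of the 3. Wild-type females 1 and 2 sit at 2.86 and 3.72, and the third wild-type female at -0.36 lies within the knockout female range of -0.75 to 0.53.

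The single clock genes show how wide this spread is. Dbp, a D-box activator at the clock's output, measured 71.6, 90.8 and 4.44 FPKM in wild-type females 1 to 3 and 9.92, 9.01 and 1.74 FPKM in knockout females 1 to 3. Its fold of 8.07 in favour of wild type therefore came from 2 libraries, and the groups overlapped (log2 change -2.31, SE 0.88, limma adjusted p = 0.780). Per3, a period gene, behaved alike, with 11.9, 16.2 and 0.84 FPKM against 1.22, 0.93 and 0.62 FPKM. Among wild types only female 3 was at the knockout level. Tef, a relative of Dbp, gave 40.6, 50.6 and 9.64 FPKM against 13.9, 9.99 and 8.36 FPKM. Ciart, a repressor of CLOCK and ARNTL that was too low to be tested, gave 2.22, 5.80 and 0.32 FPKM against 0.46, 0.14 and 0.32 FPKM. In each of these, wild-type female 3 lay nearer to the knockout values than to the other wild-type libraries.

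The REV-ERB receptors were less divided. Nr1d1 gave 87.0, 97.9 and 31.6 FPKM in wild type and 60.3, 42.5 and 33.6 FPKM in knockout, and Nr1d2 gave 27.2, 35.9 and 16.5 FPKM against 17.4, 14.9 and 9.81 FPKM. Genes of the opposite phase mirrored them. Arntl, the partner of CLOCK, measured 2.41, 0.88 and 13.7 FPKM in wild type and 8.56, 6.54 and 12.5 FPKM in knockout. Nfil3, which competes with DBP for the D-box, measured 9.23, 6.71 and 22.1 FPKM against 15.6, 13.0 and 22.3 FPKM. Npas2, Cry1 and Clock had log2 changes of 0.73, 0.48 and 0.26, all with overlapping groups. None of the 10 tested score genes passed the test between genotypes.

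**Figure D2:**
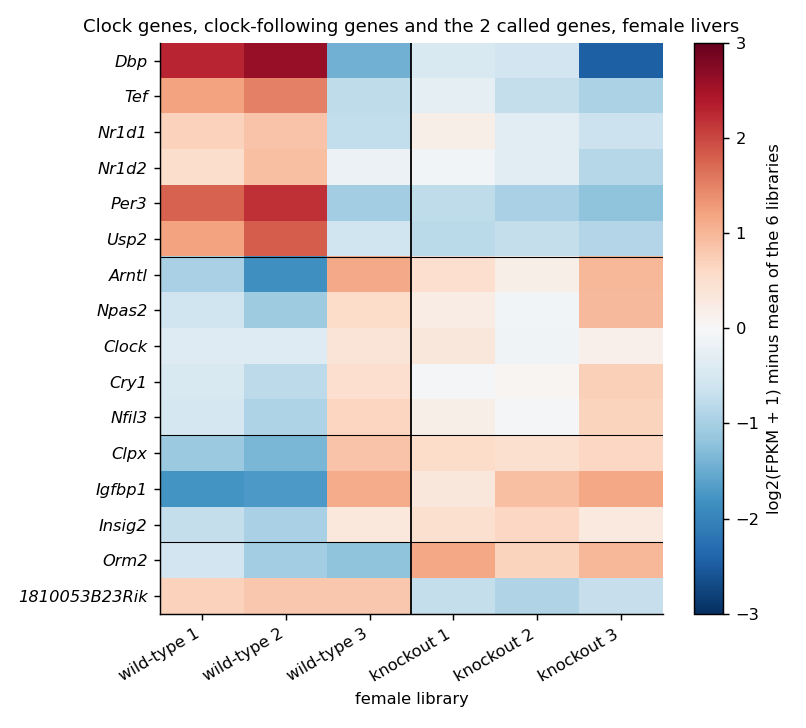
Log2(FPKM + 1) minus the mean of the 6 female libraries (colour, red higher and blue lower) for clock genes of high phase with the output gene Usp2, clock genes of low phase, Clpx, Igfbp1 and Insig2, and the 2 called genes (rows), by library (columns). Of Clpx, Igfbp1 and Insig2, only Clpx passed the test for a slope on the clock score (limma adjusted p = 0.386 for Igfbp1 and 0.862 for Insig2). In the upper rows wild-type 3 resembles the knockouts (Dbp at 4.44 FPKM against 71.6 and 90.8 in the other wild-type libraries), whereas in Orm2 and 1810053B23Rik it resembles the other wild-type libraries.

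Outside the score genes, 3 of 11504 tested genes (0.0261%) followed the score within groups at an adjusted p under 0.05, each with a negative slope, and 301 (2.62%) did so at an unadjusted p under 0.05. Chka, which starts the synthesis of phosphatidylcholine, had a slope of -0.52 log2 per unit of score (SE 0.040, limma adjusted p = 9.4e-04). In females it gave 6.54, 3.53 and 20.9 FPKM in wild type and 14.1, 13.7 and 21.0 FPKM in knockout. Clpx, part of a mitochondrial protease, had a slope of -0.51 (SE 0.060, adjusted p = 0.0108), and Lgalsl a slope of -0.36 (SE 0.043, adjusted p = 0.0119). Clpx went from 30.7 and 25.5 FPKM in wild-type females 1 and 2 to 123 FPKM in wild-type female 3, and lay at 100, 95.0 and 104 FPKM in the knockouts. These slopes rest on few libraries: without wild-type female 3, no gene outside the score passed.

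Between the genotypes, 2 of 11514 genes (0.0174%) were called in females: Orm2 rose and 1810053B23Rik fell. At an unadjusted p under 0.05, 403 genes (3.50%) were higher and 303 (2.63%) lower in knockout, 706 or 6.13% together. These counts depend on the spread shared with the male libraries. In a limma fit of the 6 female libraries alone 1426 genes had such a p, 676 higher and 750 lower. The 3 knockout and 3 wild-type values did not overlap in 2031 genes (17.6%), of which 1062 were higher and 969 lower. Without knockout female 2 no gene was called and 368 had an unadjusted p under 0.05; without the 2 libraries with Y-linked traces the counts were 0 and 521. The median log2 change over all tested genes was 0.003, so the female comparison was centred. In males the same fit called 294 genes, 245 higher and 49 lower, with a median log2 change of 0.19.

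The clock spread was taken out in 2 ways. With the clock score as a covariate no gene passed, and 366 genes (3.18%) had an unadjusted p under 0.05. Setting the 3 knockouts against wild-type female 3 alone, the wild-type library whose clock score lay within their range, also called no gene, with 197 (1.71%) at an unadjusted p under 0.05. Here the lone wild-type library is assumed to vary like the other groups. Both fits had less precision: the median SE went from 0.165 to 0.206 with the covariate and to 0.248 without wild-type females 1 and 2.

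The sizes of the changes were then set side by side. Over the 706 genes, the change with the covariate was 0.910 of the change without it at the median, and all 706 kept their sign. Against wild-type female 3 alone the median ratio was 0.831, and 696 genes kept their sign. Of the 706, 252 also had an unadjusted p under 0.05 in the same direction with the covariate and 114 against wild-type female 3 alone. In 197 of them (27.9%) wild-type female 3 lay nearer to the knockout mean than to the mean of wild-type females 1 and 2, which was so for 52.2% of all tested genes. Since the 706 were chosen by a contrast in which wild-type female 3 counts as wild type, these shares are a description. A slope on the clock score at an unadjusted p under 0.05 was present in 61 of them (8.64%), against 310 of all 11514 tested genes. Both counts include score genes, of which 4 were among the 706. The slope of a score gene follows in part from its place in the score.

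**Figure D3:**
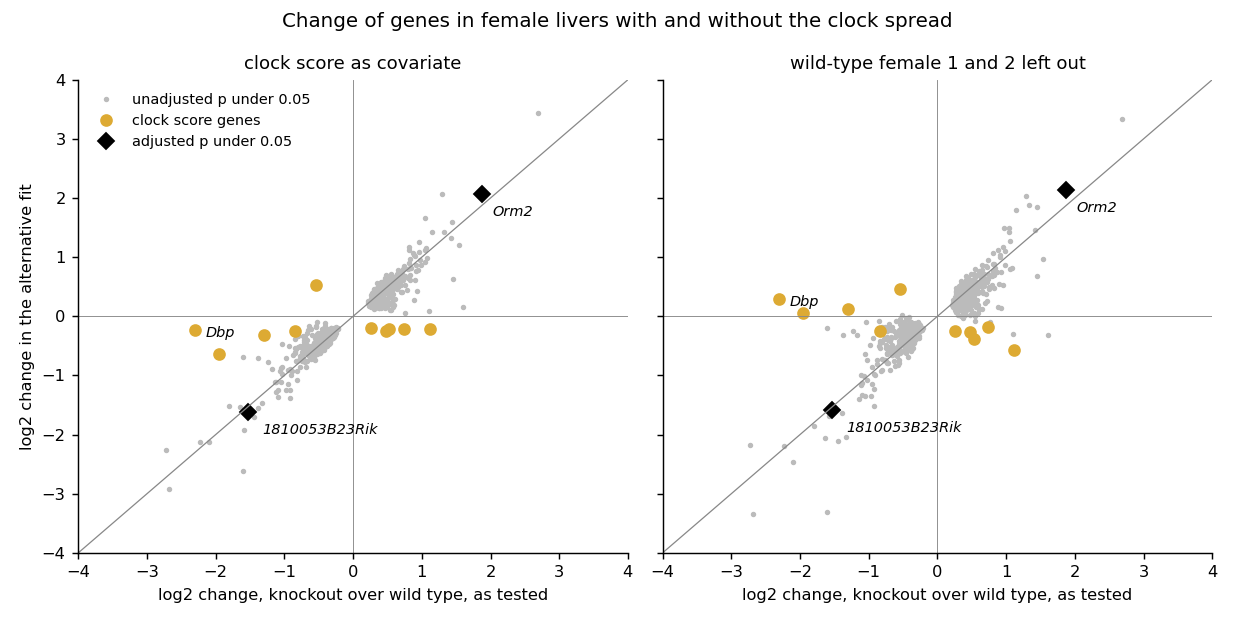
Log2 change of knockout over wild type in females as tested (x axis) against the change with the clock score as covariate (left, y axis) and against wild-type female 3 alone (right, y axis); grey points are the 706 genes at an unadjusted p under 0.05, of which Mup15 lies outside the axes, orange points the 10 tested clock score genes and black diamonds the 2 called genes, and the diagonal marks equal change. Orm2 and 1810053B23Rik stay near the diagonal, whereas Dbp moves from -2.31 to -0.24 and 0.30, which follows from its place in the score that defines both fits.

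Orm2 encodes an orosomucoid, a secreted carrier protein of the acute phase response, and was the gene that rose. It measured 27.5, 19.7 and 17.5 FPKM in wild-type females 1 to 3 and 93.3, 66.0 and 83.1 FPKM in knockout females 1 to 3. Every knockout library lay above every wild-type library, and the mean was 3.75-fold higher in knockout (21.5 ± 5.24 against 80.8 ± 13.8 FPKM, SD, n = 3). The log2 change was 1.87 (SE 0.22, limma adjusted p = 0.0122). It came to 2.06 (SE 0.26, adjusted p = 0.0513) with the clock score as covariate and to 2.13 (SE 0.29, adjusted p = 0.419) against wild-type female 3 alone. Its slope on the clock score was 0.098 (SE 0.076). Without knockout female 2, the library that stood apart, the change was 2.01 (adjusted p = 0.0518), and without the 2 libraries with Y-linked traces it was 1.94 (adjusted p = 0.15). In males Orm2 rose by a log2 change of 1.85 (SE 0.22, limma adjusted p = 0.00246), and the difference between the sexes was 0.019 (SE 0.31, adjusted p = 0.981).

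The orosomucoid genes stand side by side on chromosome 4. Orm3 gave 8.23, 11.5 and 7.59 FPKM in wild type and 20.4, 18.7 and 20.4 FPKM in knockout, and Orm1, by far the most abundant, gave 554, 701 and 686 FPKM against 951, 1050 and 953 FPKM. Neither overlapped between the groups, and neither passed the test (log2 change 1.06, SE 0.19, limma adjusted p = 0.227 for Orm3, and 0.61, SE 0.17, adjusted p = 0.587 for Orm1). The 3 genes are related copies, and how alike their transcripts are was not measured here. Reads could have been split between them, so their separate values are uncertain. Orm1, also higher in every knockout, had no entry in the promoter table. The regions upstream of Orm2 and Orm3 are shown because both genes were higher in every knockout and share most of this sequence. Each holds 1 match (capitals) to the C/EBP element TTGCNCAA, bound by factors known to drive acute phase genes.
Orm2 (chr4:63362199-63362358, plus strand): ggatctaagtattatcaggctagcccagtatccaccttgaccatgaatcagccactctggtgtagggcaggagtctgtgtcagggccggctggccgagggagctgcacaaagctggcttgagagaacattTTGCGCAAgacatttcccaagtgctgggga
Orm3 (chr4:63355908-63356067, plus strand): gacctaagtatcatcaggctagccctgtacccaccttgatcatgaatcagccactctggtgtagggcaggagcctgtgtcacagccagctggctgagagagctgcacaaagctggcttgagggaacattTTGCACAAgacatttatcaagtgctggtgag
The matches began 120 and 121 bases before the start given in the promoter table, and 168 of 249 bases compared without gaps were identical. For Orm3 the RefSeq gene bounds begin farther upstream, at base 63356069, so its match lies nearer to that start. On either strand such a match occurred in 2.61% of the promoters of the table.

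The acute phase list, of which Orm2 is a member, was among the lists with the most positive median. Of its 28 tested members, Orm2 was called, 8 were higher and 0 lower at an unadjusted p under 0.05, and 13 were higher and 1 lower without overlap. Orm1, Orm2 and Orm3, between which reads could have been split, are in both counts of higher members. By sign alone, 25 members were higher and 3 lower. Over all tested genes 3.50% were higher and 2.63% lower at that p, and 17.6% did not overlap. The median log2 change was 0.37, against 0.003 over all tested genes, and was 0.22 with the clock covariate and 0.26 against wild-type female 3 alone. Hp, haptoglobin, which binds free haemoglobin, gave 1307, 1094 and 1074 FPKM in wild type and 1818, 1658 and 1729 FPKM in knockout. Hpx, hemopexin, which binds free haem, gave 2175, 1903 and 2040 FPKM against 2665, 2639 and 2681 FPKM. For both, the lowest knockout library exceeded the highest wild-type one. Lcn2, a siderophore-binding lipocalin, was at 24.6, 14.4 and 11.9 FPKM in wild type and 65.7, 29.4 and 49.3 FPKM in knockout. Saa1, a serum amyloid with a close copy in Saa2, gave 64.5, 45.8 and 51.7 FPKM against 223, 93 and 128 FPKM. Groups of all 4 were apart, and all 4 missed the adjusted threshold (limma adjusted p from 0.714 to 0.833). Hp, Hpx and Saa1 were chosen after their values were seen. The summed neutrophil markers were also higher in knockout, at 14.2 to 18.1 FPKM in wild type and 18.8 to 24.1 FPKM in knockout. In knockout females 1 to 3 these sums were 18.8, 24.1 and 21.0 FPKM. The part of neutrophils in the acute phase values was not tested.

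The gene that fell, 1810053B23Rik, is a long non-coding RNA gene at chr16:93343716-93359543 of GRCm38. It measured 3.22, 3.58 and 3.62 FPKM in wild-type females 1 to 3 and 0.60, 0.41 and 0.62 FPKM in knockout females 1 to 3. The wild-type values were close to each other and all above the knockout values, a 6.39-fold lower mean in knockout (log2 change -1.54, SE 0.17, limma adjusted p = 0.0122). The change was -1.62 (SE 0.21, adjusted p = 0.0535) with the clock score as covariate and -1.58 (SE 0.27, adjusted p = 0.678) against wild-type female 3 alone. In males it was low in both genotypes, at 0.430 ± 0.183 FPKM in wild type and 0.393 ± 0.344 FPKM in knockout (SD, n = 3). The difference between the sexes, -1.48 (SE 0.24), did not pass (adjusted p = 0.0641). Without knockout female 2 the change was -1.47 (adjusted p = 0.0732), and without the 2 libraries with Y-linked traces -1.61 (adjusted p = 0.15). At values this low the pseudocount matters, and the adjusted p was 0.258 with a pseudocount of 0.1 in place of 1.

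Lepr, the leptin receptor, was the next gene by p among those lower in knockout and shows the same layout. It measured 2.41, 3.14 and 3.76 FPKM in wild-type females and 1.26, 0.67 and 0.82 FPKM in knockout females. The groups were apart by 3.39-fold, and the gene missed the threshold (log2 change -1.10, SE 0.17, limma adjusted p = 0.135), though it was called with quantile normalization (adjusted p = 0.0333). Male means were 0.703 and 0.963 FPKM in wild type and knockout. Cyp2a4, a testosterone hydroxylase typical of female liver, gave 655, 1036 and 464 FPKM in wild-type females and 76.7, 57.7 and 241 FPKM in knockout females. The groups did not overlap, but the spread was wide (log2 change -2.72, SE 0.60, adjusted p = 0.390). Cyp2a5, its near-identical neighbour, gave 1082, 1176 and 403 FPKM against 384, 308 and 331 FPKM. For it wild-type female 3 lay close to the knockouts, and its change went from -1.24 to -0.25 against that library alone.

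Among the genes higher in knockout, Tspan8 and Sult2a7 had the smallest p after Orm2, and neither passed. Tspan8, a tetraspanin of epithelial membranes, measured 0.87, 0.76 and 1.01 FPKM in wild type and 1.92, 2.01 and 2.43 FPKM in knockout (log2 change 0.73, SE 0.12, limma adjusted p = 0.135). Sult2a7, a sulfotransferase of a near-identical family that acts on steroids and bile acids, measured 27.3, 44.1 and 17.2 FPKM against 151, 366 and 112 FPKM. All knockouts were above all wild types, by 7.09-fold at the mean (log2 change 2.69, SE 0.46, adjusted p = 0.191). Its change grew to 3.44 with the clock covariate (adjusted p = 0.0513). Erdr1, a multicopy gene, gave 68.2, 38.3 and 57.8 FPKM against 114, 104 and 101 FPKM. C9, the pore-forming last component of complement, gave 63.2, 85.9 and 75.1 FPKM against 121, 134 and 118 FPKM. In both, the groups did not overlap. C9 had a log2 change of 0.73 in females and -0.57 in males, a difference of 1.3 (adjusted p = 0.0702) that did not pass.

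Other uncalled differences in that direction, each without overlap, came from Ovca2 (2.46, 2.38 and 3.03 FPKM against 4.29, 5.22 and 4.81), Paqr9 (55.3, 76.7 and 74.8 FPKM against 103, 133 and 132) and Chi3l1 (0.36, 0.16 and 0.21 FPKM against 1.14, 0.65 and 1.18). 4930453N24Rik and Cyp2c38 had log2 changes of 0.44 and 0.59. Sult1e1, the estrogen sulfotransferase, was near absent in wild type, at 0.19, 0.19 and 0.14 FPKM, and at 1.81, 1.84 and 2.87 FPKM in knockout. Its log2 change of 1.42 (SE 0.39) had a limma adjusted p of 0.587 in the fit of all 12 libraries. It was called in the fit of the 6 female libraries alone.

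Among the genes lower in knockout, Selenbp2, a selenium-binding protein abundant in male liver, measured 28.4, 33.7 and 22.6 FPKM in wild-type females and 13.9, 11.8 and 13.8 FPKM in knockout females. The groups were apart (log2 change -1.03, SE 0.21, limma adjusted p = 0.345). Nmrk1, a nicotinamide riboside kinase of NAD synthesis, gave 18.4, 22.7 and 16.1 FPKM against 11.1, 9.71 and 11.7 FPKM. Cystm1 gave 7.46, 5.63 and 6.88 FPKM against 2.70, 3.19 and 1.79 FPKM. Again every knockout lay below every wild type. Krt23, a keratin, gave 1.52, 1.82 and 1.72 FPKM against 0.93, 0.37 and 0.56 FPKM. Htra4, Mup4, Ngef, Ranbp3l and Tmem25 completed the 12 lowest p in that direction, with log2 changes of -0.73, -1.07, -0.98, -0.55 and -0.55. All were without overlap, and none passed.

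**Figure D4:**
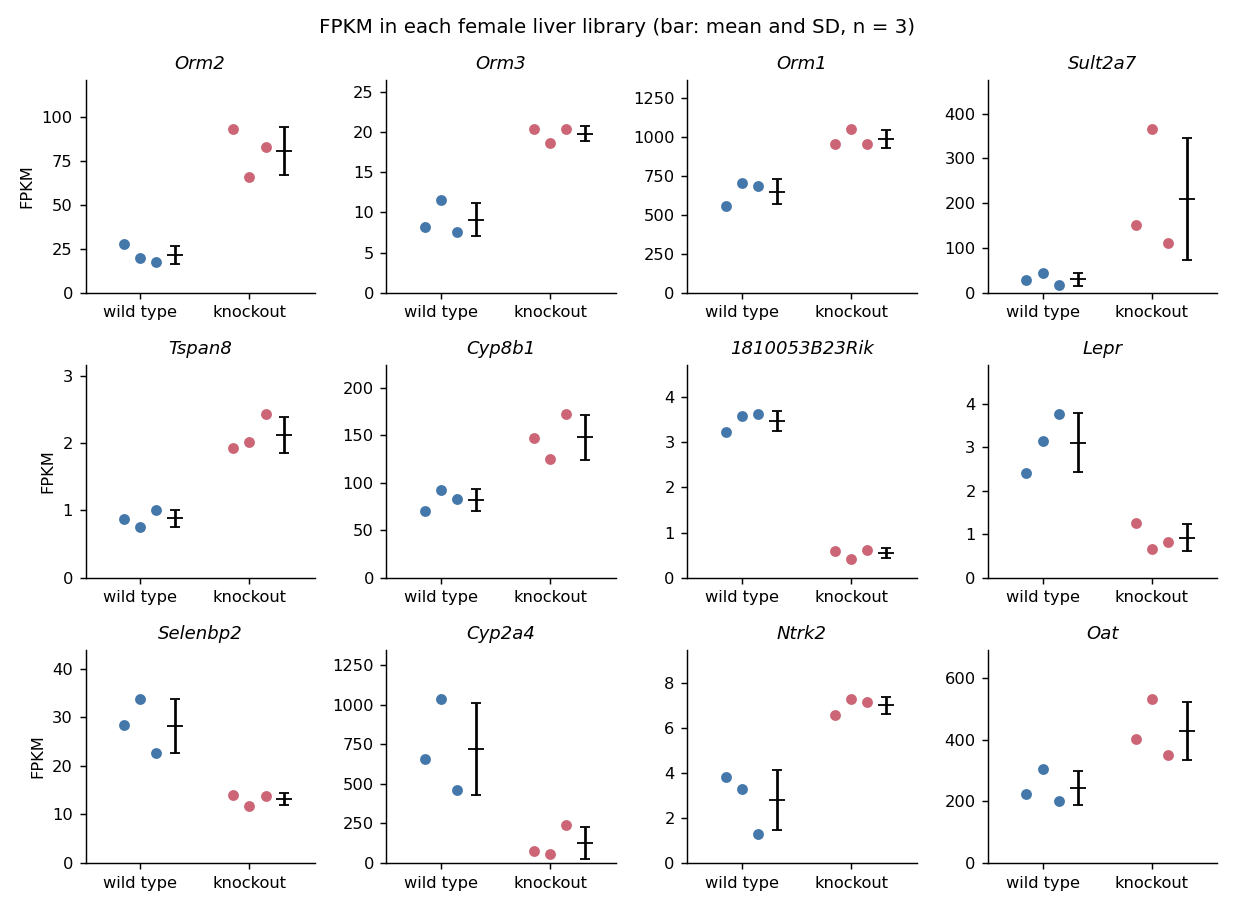
FPKM (y axis, from 0) of 12 genes in each wild-type (blue) and knockout (red) female library; the bar beside the points is the mean and SD of the 3. Only Orm2 (17.5 to 27.5 against 66.0 to 93.3 FPKM) and 1810053B23Rik (3.22 to 3.62 against 0.41 to 0.62 FPKM) passed the test, although the 3 and 3 values are apart in every panel.

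Bile acid genes were measured in both directions. Cyp8b1, the sterol hydroxylase that commits bile acids to cholic acid, gave 70.1, 92.5 and 83.4 FPKM in wild type and 147, 125 and 172 FPKM in knockout. That is 1.81-fold higher with no overlap (log2 change 0.84, SE 0.15, limma adjusted p = 0.227), and the value was 0.81 both with the clock covariate and against wild-type female 3 alone. Hsd3b7, an early enzyme of the pathway, gave 233, 207 and 276 FPKM against 336, 358 and 319 FPKM, and Scp2, a peroxisomal thiolase, gave 731, 642 and 753 FPKM against 908, 1050 and 813 FPKM. Abcg8, one of the subunits of the sterol exporter of the bile canaliculus, gave 34.9, 43.4 and 34.6 FPKM against 33.4, 22.1 and 14.4 FPKM. Over the 25 tested bile acid genes, 3 were higher and 2 lower at an unadjusted p under 0.05, beside 3.50% and 2.63% of all tested genes, with a median log2 change of 0.04. Cyp7a1, the rate-limiting enzyme, overlapped between the groups at 31.3 to 63.0 FPKM in wild type and 39.1 to 123 FPKM in knockout.

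Among pericentral hepatocyte genes, those of the cells around the central vein, 6 of 18 were higher in knockout at an unadjusted p under 0.05 and 0 lower, beside 3.50% and 2.63% of all tested genes. By sign alone, 12 of the 18 had a positive log2 change and 6 a negative one. None passed the adjusted threshold, and in bulk liver a change in the number of cells of a kind and a change in their RNA per cell cannot be told apart. Glul, glutamine synthetase, measured 270, 247 and 251 FPKM in wild type and 352, 380 and 311 FPKM in knockout (log2 change 0.44, SE 0.15, limma adjusted p = 0.731). Oat, ornithine aminotransferase, measured 225, 305 and 199 FPKM against 401, 531 and 350 FPKM (0.81, SE 0.23, adjusted p = 0.587). Lect2 gave 154, 137 and 119 FPKM against 173, 193 and 190 FPKM, and Lgr5, an R-spondin receptor, 2.29, 1.66 and 2.27 FPKM against 3.39, 2.74 and 2.95 FPKM. Cyp2e1, another member, overlapped at 4158 to 5286 FPKM in wild type and 3195 to 5173 FPKM in knockout. The list's median log2 change was 0.26, and 0.28 and 0.29 in the 2 clock-aware fits.

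Of 17 periportal genes, those of the cells around the portal vein, 14 had a negative log2 change, 2 were lower and 1 higher at an unadjusted p under 0.05 (2.63% and 3.50% of all tested genes), and the median was -0.18. The median went to -0.053 with the clock covariate and to 0.002 against wild-type female 3 alone. Cdh1, E-cadherin, gave 4.41, 3.22 and 3.42 FPKM in wild type and 2.0, 1.24 and 1.38 FPKM in knockout (log2 change -0.89, SE 0.22, limma adjusted p = 0.498). Cps1, the first enzyme of the urea cycle, gave 826, 722 and 513 FPKM against 465, 374 and 460 FPKM. Here wild-type female 3 stood between the other wild types and the knockouts.

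Of 21 tested hormone and nuclear receptors, 14 had a negative log2 change, 6 were lower and 0 higher without overlap, and 3 were lower at an unadjusted p under 0.05, Lepr among them, beside 17.6% without overlap in either direction and 2.63% lower over all tested genes. Ghr, the growth hormone receptor, gave 287, 319 and 294 FPKM in wild type and 246, 235 and 236 FPKM in knockout (log2 change -0.33, SE 0.11, limma adjusted p = 0.740). Ppara, the fatty acid sensing nuclear receptor, gave 44.8, 69.9 and 38.8 FPKM against 38.6, 24.5 and 20.8 FPKM. The values of Ghr were well apart and those of Ppara barely so. Igfbp3, a carrier of insulin-like growth factors, gave 9.69, 7.57 and 8.96 FPKM against 15.8, 11.3 and 17.3 FPKM. Irs2, a substrate of the insulin receptor, gave 4.96, 6.24 and 4.95 FPKM against 3.20, 0.94 and 3.40 FPKM. None of these passed the adjusted threshold.

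Female-biased liver genes had a median log2 change of -0.26 over 37 tested members, with 3 higher and 5 lower at an unadjusted p under 0.05, where all tested genes had 3.50% and 2.63%. Ntrk2, a neurotrophin receptor expressed in female liver, gave 3.83, 3.27 and 1.3 FPKM in wild type and 6.58, 7.27 and 7.15 FPKM in knockout (log2 change 1.14, SE 0.31, limma adjusted p = 0.587). Tox gave 6.05, 7.38 and 6.16 FPKM against 5.80, 3.45 and 3.96 FPKM. Cyp2b13 gave 128, 148 and 85.8 FPKM against 273, 292 and 183 FPKM, so members lay on both sides. Male-biased genes had a median of 0.18 over 32 members, with 1 higher (Mup21) and 1 lower (Selenbp2) at an unadjusted p under 0.05, together 6.25% beside 6.13% of all tested genes. In males the medians were 1.05 for the female-biased and -1.01 for the male-biased list.

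The difference between the female and the male effect passed the test in 3 of 11514 genes (0.0261%). Cyp2b9, a cytochrome P450 of female liver from a near-identical family, gave 401, 442 and 448 FPKM in wild-type females and 385, 298 and 447 FPKM in knockout females, which overlapped (log2 change -0.21, SE 0.36). In males it was at 0.727 ± 0.291 FPKM in wild type and 92.3 ± 48.4 FPKM in knockout (SD, n = 3). The female effect was lower than the male one by a log2 difference of -5.80 (SE 0.50, limma adjusted p = 0.00122). Slc22a27, an organic anion transporter of female liver, had log2 changes of -0.19 in females and 2.23 in males, a difference of -2.43 (SE 0.33, adjusted p = 0.0436). Selenbp2 had -1.03 in females and -3.18 in males, a difference of 2.15 (SE 0.29, adjusted p = 0.0436).

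Xenobiotic metabolism genes were split, with 3 of 31 higher and 6 lower at an unadjusted p under 0.05 (3.50% and 2.63% of all tested genes) and a median of -0.086. Cyp3a11, the main drug-oxidising cytochrome P450 of its family, gave 632, 329 and 210 FPKM in wild type and 989, 1499 and 438 FPKM in knockout. Aldh1a1, a retinal dehydrogenase, gave 388, 417 and 354 FPKM against 543, 754 and 547 FPKM (log2 change 0.65, SE 0.16, limma adjusted p = 0.514). Ces2a, a carboxylesterase, gave 135, 118 and 164 FPKM against 109, 110 and 88.3 FPKM. Por, the reductase that feeds all microsomal cytochromes P450, gave 244, 232 and 125 FPKM against 144, 86.9 and 105 FPKM, with wild-type female 3 inside the knockout range.

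In several metabolic lists the value depended on which wild-type libraries were used. Glucocorticoid and fasting genes had the highest median of the lists with at least 10 members, 0.38 over 20 genes, which went to 0.10 with the clock covariate and to -0.18 against wild-type female 3 alone. Igfbp1, an insulin-repressed carrier protein, gave 14.6, 15.5 and 117 FPKM in wild type and 68.3, 100 and 120 FPKM in knockout. G6pc, the last step of glucose release, chosen after its values were seen, gave 55.8, 82.4 and 333 FPKM against 198, 279 and 241 FPKM. Lipogenesis genes had a median of -0.30 over 23 members, with 18 negative, which went to -0.21 and to -0.013. Cholesterol synthesis genes had a median of -0.12 over 27 members, which turned to 0.076 and to 0.32. Insig2, which holds back sterol synthesis, gave 25.4, 21.1 and 53.5 FPKM against 59.9, 66.6 and 52.1 FPKM.

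In lipid handling, Agpat2, an acyltransferase of triglyceride synthesis, gave 98.8, 78.1 and 109 FPKM in wild type and 138, 148 and 147 FPKM in knockout, with log2 changes of 0.61 as tested and 0.51 and 0.40 in the clock-aware fits. Plin5, a lipid droplet coat protein, gave 7.58, 7.49 and 12.7 FPKM against 15.9, 15.9 and 14.4 FPKM, and Lipe, hormone-sensitive lipase, 5.85, 5.34 and 4.23 FPKM against 3.78, 3.19 and 3.36 FPKM. For both, the change against wild-type female 3 alone was smaller, at 0.26 against 0.71 for Plin5 and -0.24 against -0.46 for Lipe. In the lists of fatty acid oxidation (36 genes), mitochondrial respiratory chain (29), cytosolic ribosome (32), interferon response (34), unfolded protein response (25) and MHC class II (10), no gene had an unadjusted p under 0.05 in females. Their medians lay between -0.005 and 0.14. Of 35 antioxidant and NRF2 genes 1 did, the cystine transporter Slc7a11 (6.94, 6.31 and 5.69 FPKM against 7.33, 9.80 and 14.3), and 8 were higher and 0 lower without overlap, beside 17.6% of all tested genes without overlap in either direction. Among 15 immediate early genes, Dusp1, a phosphatase that ends MAP kinase signals, gave 8.44, 19.9 and 24.2 FPKM against 33.5, 62.6 and 54.6 FPKM.

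**Figure D5:**
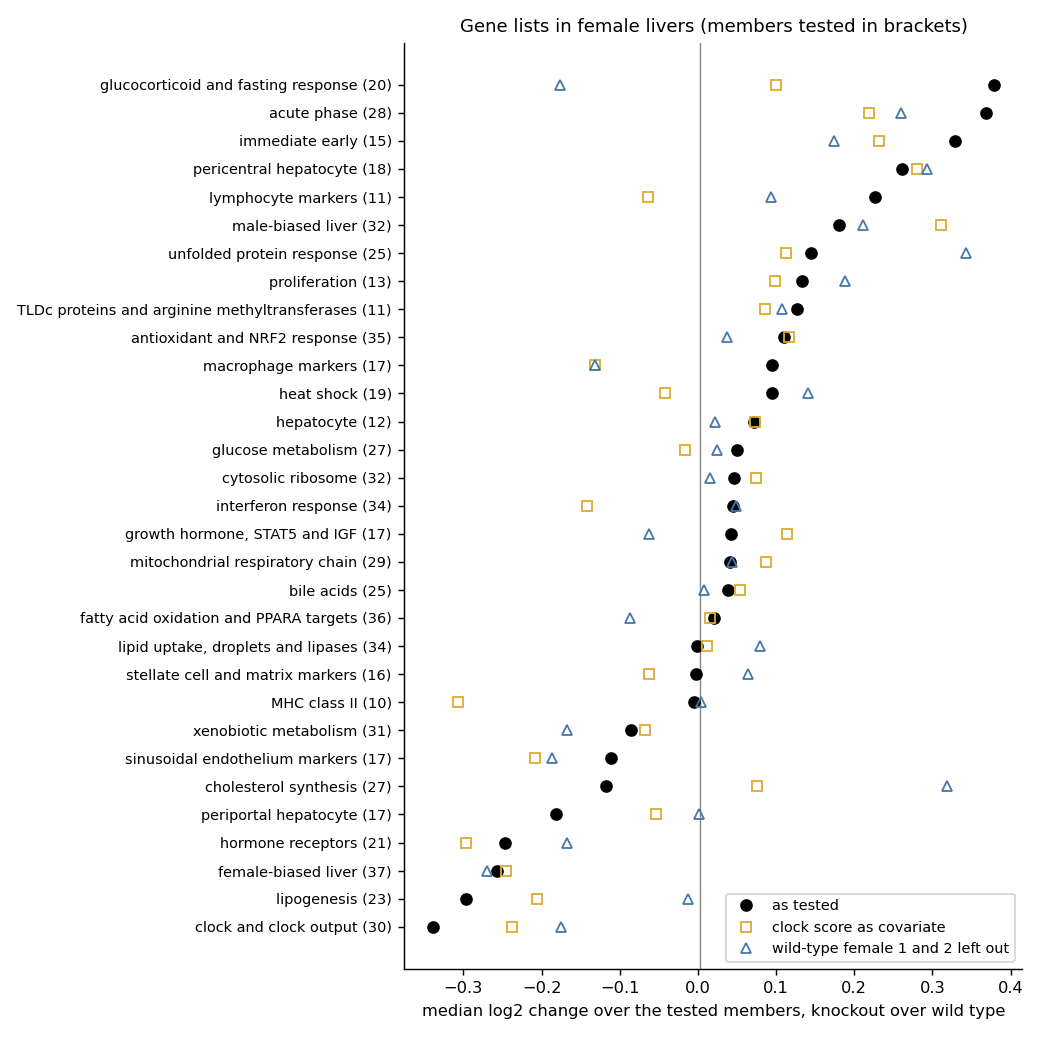
Median log2 change of knockout over wild type in females (x axis) over the tested members of 31 gene lists with at least 10 of them (y axis, number of members in brackets), as tested (black), with the clock score as covariate (orange) and against wild-type female 3 alone (blue); the grey line is the median over all tested genes. Acute phase (0.37, 0.22 and 0.26) and pericentral genes (0.26, 0.28 and 0.29) keep their side, whereas glucocorticoid and fasting genes go from 0.38 to -0.18 and cholesterol synthesis from -0.12 to 0.32.

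Hepatocyte markers (12 of 12 tested) summed to 83346 to 93806 FPKM in wild-type and 90518 to 101450 FPKM in knockout females, far above every other marker list. Markers of macrophages summed to 540 to 817 FPKM in wild type and 632 to 888 FPKM in knockout over 17 genes, and those of sinusoidal endothelium to 258 to 297 FPKM and 251 to 274 FPKM over 17 genes. The summed neutrophil markers, given above beside the acute phase genes, were apart between the groups. They rest on 10 genes, of which 5 were under 1 FPKM in all 6 libraries. S100a8, a calcium-binding protein of neutrophils, gave 2.61, 1.92 and 2.70 FPKM against 3.99, 3.96 and 4.13 FPKM. Stellate cell and matrix markers summed to 290 to 311 FPKM against 312 to 357 FPKM over 18 genes. These sums barely missed overlapping, with wild-type female 1 at 311.4 FPKM and knockout female 2 at 312.3 FPKM. Of the 16 tested members 8 were higher and 8 lower, with a median log2 change of -0.002. The sums for lymphocytes (20.1 to 35.4 against 23.6 to 60.0 FPKM, 17 genes), cholangiocytes (57.4 to 70 against 65.7 to 88.8 FPKM, 10 genes), red cells (519 to 1523 against 665 to 1198 FPKM, 8 genes) and fat cells (1636 to 1886 against 1728 to 2558 FPKM, 6 genes) overlapped. Under 1 FPKM in all 6 libraries were 7 lymphocyte, 3 cholangiocyte, 3 red cell and 4 fat cell markers, so these sums rest on few genes. Exocrine pancreas markers stood at 3.92 to 5.77 FPKM in all 6 libraries over 9 genes, with 7 of them under 1 FPKM throughout and Prss1 and Cela3b listed at 0.

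Major urinary proteins (Mup), pheromone carriers made in the liver, made up different shares of the summed FPKM: 2.19%, 3.31% and 3.70% in wild-type females 1 to 3 and 1.14%, 1.71% and 1.55% in knockout females 1 to 3. The groups did not overlap, and wild-type female 3, low in clock score, was the highest. Of the 20 Mup genes, described here after their values were seen, 15 had a negative log2 change, 11 were lower and 1 higher without overlap, and 9 were lower and 1 higher at an unadjusted p under 0.05. The shares over all tested genes were 17.6% without overlap and, at that p, 2.63% lower and 3.50% higher. The median was -0.90, and -0.77 and -0.95 in the clock-aware fits. Mup19 was the most abundant, with 6149, 9295 and 11690 FPKM in wild type and 2081, 3200 and 3300 FPKM in knockout (log2 change -1.64, SE 0.68, limma adjusted p = 0.791). Mup9 gave 97.7, 192 and 146 FPKM against 42.0, 38.6 and 37.4 FPKM. Mup15 gave 52.9, 338 and 547 FPKM in wild type and was listed at 0 in all 3 knockouts. It was also listed at 0 in 3 of the 6 male libraries, and near-identical copies make the split between Mup genes uncertain.

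Mup15 was 1 of 2 genes listed at 0 in all 3 knockout females and at 1 FPKM or more in all 3 wild-type females, and no gene showed the reverse. The other was Gm14305 on chromosome 2, at 2.23, 1.58 and 2.23 FPKM in wild-type females. Both varied in males within each genotype, and neither passed in the fit of all 12 libraries (limma adjusted p = 0.780 for Mup15 and 0.617 for Gm14305). In the fit of the 6 female libraries alone both were called (adjusted p = 0.0126 and 0.00845), as was Mup9 (adjusted p = 0.0454). On chromosome 15, which carries Oxr1, 41 of 457 tested genes (8.97%) had an unadjusted p under 0.05, against 6.03% on the other chromosomes. Within 20 Mb of Oxr1 the count was 7 of 88 (7.95%), and within 10 Mb it was 0 of 41.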

How the data were processed

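The values are FPKM for 18560 genes, deposited by the authors as 1 table of 12 liver libraries. Per the labels' protocols, poly(A) RNA was selected and copied with random primers. TopHat2 and build mm10 are named in the submitters' processing notes. Which program gave the FPKM, its annotation and filters, and how many reads were mapped, is not given in the sources used here. Depth is known only relative to wild-type female 1, from the steps of low values in 181 genes, so no counting intervals were made. At most 0.378% of values of at least 5 FPKM were identical in any pair of libraries, and all were kept.

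limma 3.58.1 in R 4.3.3 fitted 1 mean for each of the 4 groups to log2(FPKM + 1) of 11514 genes, with a trend in the moderated variances and Benjamini-Hochberg adjustment (two-sided). The female comparison and the interaction are contrasts of that fit. On simulated data only the female contrast and the slope on the clock score were tried, not the interaction. The clock-aware fits added the clock score with a slope common to the groups, or left out wild-type females 1 and 2, an alternative chosen after seeing the data. Replicate numbers did not pair the libraries (correlations of same-numbered deviations from -0.32 to 0.56).

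The comparison, the 37 gene lists, the clock score genes and the naming rule were chosen with earlier results of these data known. Named genes are Oxr1, the sex check and clock score genes, the 12 genes of smallest p in each direction (called ones first), up to 3 members of smallest p per list, and the leading genes of the clock-aware, interaction and slope tests. All other genes were chosen after their values were seen. Coordinates come from RefSeq GRCm38, matched for 18502 genes, and promoters were found for 14 of 15 genes looked up.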

Additional observations from a re-analysis of the deposited data

Results flagged for a closer look

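In 3 genes the knockout effect differed between females and males in limma's interaction test. Cyp2b9 had a female effect 5.80 log2 units below the male one (log2 difference -5.80, adjusted p = 0.00122), and Slc22a27 one of -2.43 (adjusted p = 0.0436). For Selenbp2 the difference was 2.15 (adjusted p = 0.0436), with lower values in knockout in all 3 libraries of both sexes. Each group holds 3 libraries, too few for a test of outlying libraries.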

How the results depend on the processing

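Of 2730 values of 106 single genes over 26 alternatives, 2611 kept their direction and their side of the threshold, 66 came past it, 19 dropped back and 34 reversed. Most of those 66 came from the fit with array weights, whose estimation did not converge. The 2 called genes of the female comparison became 1 with a pseudocount of 0.1, 4 without the filter (Vtcn1 and Rgma added), 1 at a mean of at least 5 FPKM, 1 with median-ratio scaling (Orm2 at adjusted p = 0.0590), 3 with quantile normalization (Lepr added), 6 in the 6 female libraries alone (Gm14305, Mup15, Mup9 and Sult1e1 added), 0 with the clock covariate, 1 with covariate and block, 0 without the 2 libraries with Y-linked traces, 0 without wild-type females 1 and 2, and 1 with the length trend removed. Array weights called 229 (130 higher, 99 lower), but their estimation did not converge and gave wild-type male 3 a weight of 5.07e-06. Leaving out 1 library gave 0 to 12: 0 without wild-type female 2 or any 1 knockout female, 1 without wild-type female 1, and 12 without wild-type female 3 (Usp2, Per3, Clpx, Tef, Insig2, G6pc, Dbp, Slc16a1, Wee1 and Ngef added). Orm2 kept log2 changes of 1.72 to 2.18 and 1810053B23Rik of -2.49 to -1.47 throughout. The 3 interaction genes became 5 with a pseudocount of 0.1, 10 with array weights, 5 with the clock covariate, 1 without the Y-trace libraries, 1 with the length trend removed, and 1 to 22 with 1 library left out (22 without knockout male 3). The 3 genes following the clock score became 1 in the female libraries alone, 1 without the Y-trace libraries, 0 without wild-type females 1 and 2, 5 with the length trend removed, 1 with the high list alone, and 0 to 4 with 1 library left out (0 without wild-type female 3). The replicate number as a block, which does not pair the libraries (in females all 3 same-number correlations were negative, -0.13 to -0.023), left 2 called genes, and gave 5 interaction genes and 1 clock-following gene.

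Reversed log2 changes were found in score genes, in Chka, Clpx, Lgalsl, Pdk4 and Igfbp1, and in Oxr1, whose change was near 0. With the covariate they were Oxr1 -0.016, Nr1d1 0.52, Arntl -0.21, Npas2 -0.21, Clock -0.19, Cry1 -0.26, Nfil3 -0.21, Chka -0.14 and Pdk4 -0.74. With covariate and block they were Nr1d1 0.81, Arntl -0.080, Npas2 -0.33, Clock -0.13, Cry1 -0.25, Nfil3 -0.14, Chka -0.11 and Pdk4 -0.71. Against wild-type female 3 alone they were Oxr1 -0.028, Dbp 0.30, Tef 0.12, Nr1d1 0.47, Per3 0.052, Arntl -0.57, Npas2 -0.19, Clock -0.26, Cry1 -0.27, Nfil3 -0.39, Chka -0.37, Clpx -0.29, Lgalsl -0.096, Pdk4 -1.20 and Igfbp1 -0.32. Pdk4, a kinase that curbs pyruvate oxidation, ran from -0.029 without wild-type female 2 to 1.28 without wild-type female 3, and was -0.053 without the Y-trace libraries. For the genes in the clock score these moves follow from how the fits were built, since the score was the covariate or chose the library kept. For the others the cause was not tested.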

Other observations

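Not every gene of the clock list followed the division among the wild-type females. Ccrn4l, a rhythmic RNA-binding enzyme also called nocturnin and picked here after its values were seen, gave 48.1, 101 and 95.5 FPKM in wild-type females 1 to 3 and 33.1, 30.6 and 49.1 FPKM in knockout females 1 to 3. Wild-type female 3 was high, and the log2 change of -1.05 (SE 0.38, limma adjusted p = 0.749) was -1.12 with the clock score as covariate and -1.35 against wild-type female 3 alone. Usp2, a ubiquitin protease of the clock output, gave 5.0, 8.07 and 0.71 FPKM against 0.47, 0.57 and 0.42 FPKM, and its change of -1.61 was -0.69 and -0.20 in those fits. Wee1, a cell cycle kinase driven by the clock, gave 3.34, 5.01 and 0.90 FPKM against 0.94, 0.68 and 0.74 FPKM.

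Cyp26a1, which breaks down retinoic acid, gave 10.1, 7.84 and 7.61 FPKM in wild-type and 11.1, 18.1 and 23.1 FPKM in knockout females, with log2 changes of 0.91 as tested, 1.02 with the covariate and 1.04 against wild-type female 3 alone (limma adjusted p = 0.748 as tested). Cox7a1, a subunit of respiratory complex IV, gave 5.20, 3.07 and 5.88 FPKM against 1.62, 1.84 and 2.41 FPKM, with a log2 change of -0.92 (adjusted p = 0.427). Neither pair of groups overlapped, and neither gene passed.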
